A study of Mus musculus with 4 samples.

Results

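The Polycomb and DNA methylation enzymes described here are 10 genes that write, read or remove repressive chromatin marks: Ezh1, Ezh2, Eed and Suz12 of Polycomb repressive complex 2 (PRC2), Bmi1 and Cbx7 of Polycomb repressive complex 1 (PRC1), and Dnmt1, Dnmt3a, Dnmt3b and Tet2, which add or oxidise methyl groups on DNA. They were chosen by name, as genes with a probe set annotated to that gene alone, and 10 of the 18193 genes measured on the arrays met this rule through 30 probe sets. Each array gave 1 signal per probe set. A gene is represented below by its probe set of highest mean log2 signal over the arrays, called its brightest, unless another is named.

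The study set leukemic cells from the marrow of diseased C57BL6 mice against normal bone marrow, with 1 array for each of 4 samples. The mixed lineage leukemia arose from hematopoietic stem and precursor cells that received 2 fusion genes, MLL-AF4 together with AF4-MLL. In the other 2 leukemias such cells received AF4-MLL alone, and these were typed as an acute lymphoblastic leukemia of proB type (proB ALL) and as a biphenotypic acute leukemia with B and T features (B/T BAL). The last sample was normal bone marrow. MLL (Kmt2a) is a histone methyltransferase of active genes, and AF4 (Aff1) is a transcription elongation factor. Cells were typed by flow cytometry and not sorted, so each leukemia array holds whatever host marrow remained. The marrow was taken after several months from moribund mice. The age of the mice, the vector that carried the fusions, what the normal marrow donors received and whether a sample is 1 mouse or a pool are not stated in the labels.

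PRC2 methylates a lysine in the tail of histone H3 through either of its alternative catalytic subunits, Ezh1 or Ezh2, which work only when bound to Eed and Suz12. PRC1 binds that mark through chromodomain proteins such as Cbx7, and Bmi1 stimulates its ubiquitin ligase on histone H2A. Dnmt1 copies DNA methylation onto the new strand after replication, Dnmt3a and Dnmt3b methylate unmethylated DNA, and Tet2 oxidises 5-methylcytosine as a step towards its removal. In blood, Bmi1 is known for self-renewal of stem cells, Ezh2 for early lymphocyte development, and DNMT3A and TET2 for recurrent mutations in human myeloid leukemia.

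No group had a second array, so a difference between single arrays has no replicate error. Signals are MAS5 values on a linear scale, and all 4 arrays had a trimmed mean of about 1000. Signals at or below 189, the median of all signals, are called below the floor. Of the 30 probe sets, 22 lay above the floor on all 4 arrays and 4 on none of them. Of all probe sets, 57.4%, 46.3% and 49.0% were above the floor for the mixed lineage, proB ALL and B/T BAL leukemias, against 47.2% for normal marrow. The 3' to 5' ratio of Actb, which reads RNA integrity and labelling, was 3.10, 2.47 and 4.72 for the mixed lineage, proB ALL and B/T BAL leukemias, against 1.87 for normal marrow. For Gapdh it was 1.24, 1.28 and 1.14, against 0.94 for normal marrow, so B/T BAL had the highest ratio of the leukemias by Actb and the lowest by Gapdh.

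The cell types on the arrays differed widely. The 7 red cell precursor markers summed to 1415, 1204 and 2922 in the mixed lineage, proB ALL and B/T BAL leukemias, against 176668 in normal marrow, and all 7 were lower by 2-fold or more in every leukemia. T-cell markers summed to 1948, 45112 and 152546 in the 3 leukemias, against 3430 in normal marrow. Natural killer and cytotoxic markers summed to 999, 67144 and 556 in the same leukemias, against 1860 in normal marrow. Of 6 B-cell markers, Pax5, Ebf1, Vpreb1 and Igll1 were below the floor in every leukemia, proB ALL and B/T BAL included. In normal marrow Ebf1, Vpreb1 and Igll1 had 697, 11111 and 4111. The Pax5 signal of normal marrow, 185, did not reach the floor either, so Pax5 cannot show a loss in the leukemias. The other 2 markers, Cd79a and Cd79b, were above the floor on all 4 arrays. Cd79a had 994, 426 and 216 in the leukemias, against 1708 in normal marrow, and Cd79b had 3051, 2484 and 352, against 6035. The leukemias are called by their labels here. In unsorted cells a lower signal can mean fewer cells that use a gene or less RNA per cell, and the arrays cannot tell these apart.

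Among the 10 genes, the de novo DNA methyltransferases Dnmt3a and Dnmt3b set the leukemias apart most. By every probe set both were higher in the 2 leukemias with AF4-MLL alone than in normal marrow and than in mixed lineage leukemia. Mixed lineage leukemia was below normal marrow by 2 of 5 probe sets of Dnmt3a and 1 of 2 of Dnmt3b, the brightest of each among them. Ezh2 and Dnmt1 were higher in B/T BAL and lower in the other 2 leukemias. Ezh1 was lower in all 3. Bmi1 was higher in all 3 by its brightest probe set, by more than 2-fold in proB ALL and B/T BAL. Its other probe set was 1.03-fold lower in mixed lineage leukemia. Eed and Suz12 differed by less than 2-fold from normal marrow on each leukemia array by their brightest probe sets. Other probe sets of Suz12 were 2.50-fold and 2.37-fold lower in proB ALL and B/T BAL (1452364_at) and 2.09-fold higher in mixed lineage leukemia (1449661_at). Tet2 was higher in all 3, by at most 1.39-fold by the probe set that represents it and by 8.42-fold in proB ALL by 1438781_at. Differences between single arrays were not tested, and each is a description of these arrays. Limma was fitted only to leukemia against normal marrow and to both fusions against AF4-MLL alone, where none of the 10 genes passed.

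**Figure D1:**
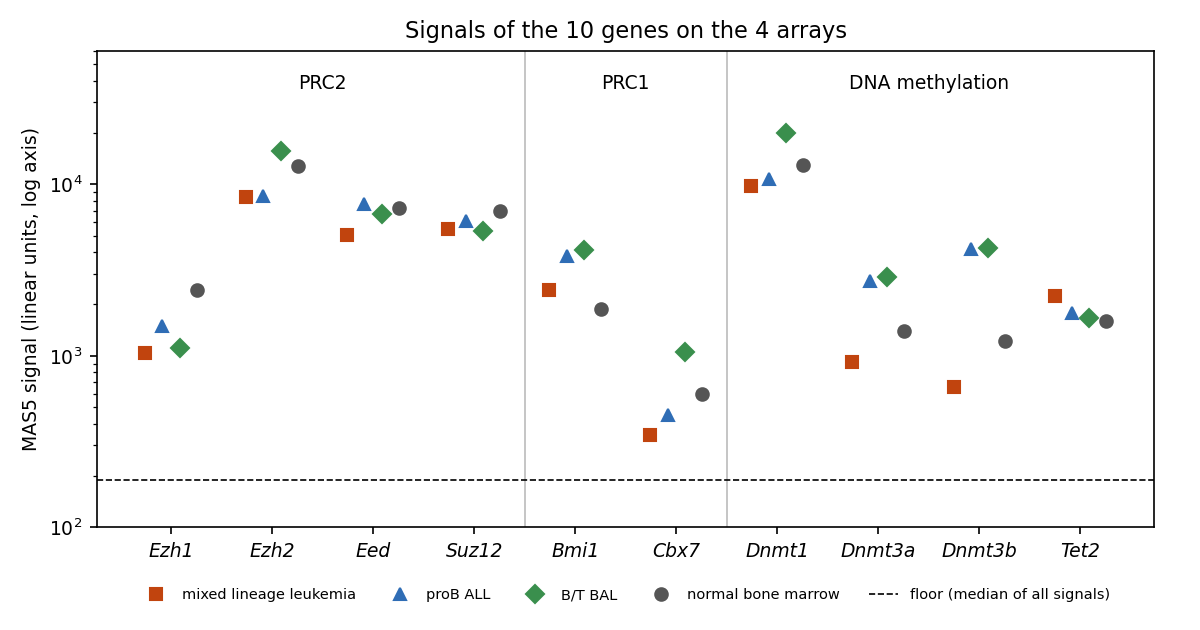
MAS5 signal on a log axis of each gene's representative probe set on the mixed lineage leukemia (squares), proB ALL (triangles), B/T BAL (diamonds) and normal bone marrow (circles) arrays, 1 array each and so with no error bars, with the floor of 189 dashed. Dnmt3b had 654, 4183 and 4269 in the 3 leukemias and 1227 in normal marrow, the widest spread of the 10 genes.

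Ezh1, the PRC2 catalytic subunit that predominates in resting cells, had signals of 1042, 1497 and 1116 in the mixed lineage, proB ALL and B/T BAL leukemias, against 2410 in normal marrow. All 3 leukemias lay below normal marrow, by 2.31-fold, 1.61-fold and 2.16-fold. The log2 differences of -1.17, -0.67 and -1.08 are on the log2(signal + 51.4) scale, which understates the change of dim genes and is used for all log2 values here. A dimmer probe set, 1418290_a_at, had 48.9, 93.1 and 184 in the leukemias, all below the floor, and 277 in normal marrow, at least 1.47-fold higher in normal marrow. The remaining 2 probe sets of Ezh1 were below the floor on all 4 arrays. Both probe sets of Ezh1 that lay above the floor on any array have the ending _a, which Affymetrix gives to probe sets that match several transcripts of a gene, and the direction rests on them. Like Ezh1, the red cell markers were lower in each leukemia, and their part in its difference was not tested.

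Ezh2, the PRC2 catalytic subunit of dividing cells, had 8383, 8511 and 15591 in the mixed lineage, proB ALL and B/T BAL leukemias, against 12789 in normal marrow. The mixed lineage and proB ALL signals were nearly equal and 1.53-fold and 1.50-fold below normal marrow, while B/T BAL was 1.22-fold above it. Between the 2 leukemias with AF4-MLL alone, B/T BAL exceeded proB ALL 1.83-fold.

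Eed, the subunit that binds the methylated histone tail, had 5089, 7693 and 6743 in the mixed lineage, proB ALL and B/T BAL leukemias, against 7271 in normal marrow. Its largest difference from normal marrow was the 1.43-fold lower signal in mixed lineage leukemia. Suz12, the scaffold of the complex, had 5496, 6115 and 5332 in the leukemias, against 6966 in normal marrow, at most 1.31-fold apart. The probe sets of Suz12 did not give 1 direction. Of the 5 above the floor, 3 were lower and 2 higher in mixed lineage leukemia than in normal marrow. The probe set 1452364_at had 922, 685 and 721 in the mixed lineage, proB ALL and B/T BAL leukemias, against 1712 in normal marrow, 2.50-fold and 2.37-fold lower in proB ALL and B/T BAL. The probe set 1449661_at had 1778, 964 and 831 in the same leukemias, against 850 in normal marrow, 2.09-fold higher in mixed lineage leukemia. All 5 were lower in B/T BAL than in normal marrow, 1449661_at by 1.02-fold.

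Bmi1 (Pcgf4), the ring finger partner of the PRC1 ligase, had 2405, 3830 and 4138 in the mixed lineage, proB ALL and B/T BAL leukemias, against 1875 in normal marrow. The differences were 1.28-fold, 2.04-fold and 2.21-fold, with log2 values of 0.35, 1.01 and 1.12. The second probe set, 1448733_at, had 1194, 1606 and 1709 in the leukemias, against 1234 in normal marrow. By that probe set mixed lineage leukemia was 1.03-fold lower than normal marrow, and proB ALL and B/T BAL were 1.30-fold and 1.39-fold higher. Both probe sets placed proB ALL and B/T BAL above normal marrow and above mixed lineage leukemia, and only the brighter of them passed 2-fold.

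Cbx7, a chromodomain protein of PRC1, had 344, 451 and 1046 in the mixed lineage, proB ALL and B/T BAL leukemias, against 599 in normal marrow. B/T BAL was the high array, 1.75-fold above normal marrow, 2.32-fold above proB ALL and 3.04-fold above mixed lineage leukemia. The 2 dimmer probe sets were also highest on the B/T BAL array. The probe set 1449713_at had 238, 125 and 324 in the mixed lineage, proB ALL and B/T BAL leukemias, against 135 in normal marrow. With normal marrow at the floor it was at least 1.26-fold higher in mixed lineage leukemia and at least 1.72-fold higher in B/T BAL, so the probe sets of Cbx7 place mixed lineage leukemia on different sides of normal marrow.

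Dnmt1, the maintenance methyltransferase, had 9819, 10657 and 19925 in the mixed lineage, proB ALL and B/T BAL leukemias, against 12925 in normal marrow. B/T BAL was 1.54-fold above normal marrow, and mixed lineage leukemia and proB ALL were 1.32-fold and 1.21-fold below it. All 3 probe sets of Dnmt1 gave these directions. Over these probe sets mixed lineage leukemia was 2.03-fold to 2.74-fold below B/T BAL, and B/T BAL was 1.87-fold to 2.21-fold above proB ALL.

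By the representative probe sets Ezh2, Dnmt1 and Cbx7 had the same order of arrays, mixed lineage leukemia lowest, then proB ALL, normal marrow and B/T BAL. With each array scaled to its 75th percentile, mixed lineage leukemia was above proB ALL for Ezh2 and Dnmt1, by log2 differences of 0.21 and 0.12. Uhrf1, which brings Dnmt1 to hemimethylated DNA at the replication fork and was named after its values were seen, had 9931, 10250 and 24432 in the mixed lineage, proB ALL and B/T BAL leukemias, against 16436 in normal marrow. Its dimmer probe set did not share the order, being lower in B/T BAL at 1418, against 1934 in normal marrow. A list of 13 measured genes of dividing cells had median log2 differences of -0.39, -0.51 and 0.05 in the mixed lineage, proB ALL and B/T BAL leukemias, where the medians over all 14012 tested genes were 0.08, -0.11 and 0.05. On the same arrays Ezh2 had -0.61, -0.58 and 0.28, and Dnmt1 had -0.39, -0.28 and 0.62. The dividing-cell list had 4, 2 and 1 of its 13 genes at least 2-fold lower in the 3 leukemias, where 15.2%, 18.7% and 17.7% of all tested genes were. It had 0 at least 2-fold higher, where 18.8%, 11.3% and 15.4% of all tested genes were. The part of this list in the differences of Ezh2 and Dnmt1 was not tested.

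The promoters of Ezh2 and Dnmt1 are shown because both were highest in B/T BAL and hold the E2F motif, named for factors that drive genes of dividing cells. They were picked with the motif matches known. They come from the RefSeq promoter table of build GRCm38.p6, which held windows for all 10 genes, 300 bases each, running up to and just past the gene's start. Capitals mark 2 motifs, searched on both strands, the E2F motif (TTTCCCGC, TTTGCCGC, TTTGGCGC or TTTCGCGC) and the CCAAT box (CCAAT). Of Dnmt1's 3 windows, the one with the E2F motif is printed.
Ezh2 promoter, chr6:47594981-47595280, minus strand: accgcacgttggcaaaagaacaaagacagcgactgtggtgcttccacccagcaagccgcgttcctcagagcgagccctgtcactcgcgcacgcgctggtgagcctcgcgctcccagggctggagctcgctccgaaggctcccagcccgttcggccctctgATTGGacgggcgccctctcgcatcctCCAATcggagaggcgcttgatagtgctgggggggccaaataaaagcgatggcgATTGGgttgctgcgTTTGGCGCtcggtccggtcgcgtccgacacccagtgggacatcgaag
Dnmt1 promoter, chr9:20952574-20952873, minus strand: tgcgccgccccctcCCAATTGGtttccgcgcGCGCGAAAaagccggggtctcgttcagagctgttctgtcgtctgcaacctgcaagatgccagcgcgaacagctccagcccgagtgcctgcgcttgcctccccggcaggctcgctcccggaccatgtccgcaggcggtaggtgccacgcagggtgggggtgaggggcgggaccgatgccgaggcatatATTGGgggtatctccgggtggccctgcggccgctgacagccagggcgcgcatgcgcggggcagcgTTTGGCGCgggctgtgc

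The E2F motif occurred at 1 place in the Ezh2 window and at 2 places in the Dnmt1 window, and 2.26% of the 32851 promoter windows of the table held it. It also occurred in windows of Uhrf1 and of Suz12. The representative of Suz12 was lowest in B/T BAL, by 1.03-fold from mixed lineage leukemia, while its probe sets 1427253_s_at and 1452364_at were lowest in proB ALL. The window of Cbx7, which shared the array order of Ezh2 and Dnmt1, held no match. Of the 10 genes, 3 had a window with the motif. The CCAAT box, found in 37.4% of all windows, was in windows of 5 of the 10 genes. These counts are of genes with a match in any of their windows, 14 in all, whereas the percentages are of windows. In the Dnmt1 window 2 matches of the CCAAT box, 1 on each strand, overlap. A match describes these letters and is not a bound site.

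Dnmt3a, a de novo methyltransferase, had 920, 2718 and 2875 in the mixed lineage, proB ALL and B/T BAL leukemias, against 1399 in normal marrow. The 2 leukemias with AF4-MLL alone were 1.94-fold and 2.06-fold above normal marrow, and mixed lineage leukemia was 1.52-fold below it. All 5 probe sets of Dnmt3a were above the floor on at least 1 array, and all 5 were higher in both leukemias with AF4-MLL alone than in normal marrow. They did not give 1 size. The probe set 1423064_at had 396, 1046 and 3151 in the mixed lineage, proB ALL and B/T BAL leukemias, against 391 in normal marrow, 8.06-fold higher in B/T BAL and 2.67-fold higher in proB ALL. The probe sets 1423065_at and 1423066_at were 6.86-fold and 6.98-fold higher in B/T BAL than in normal marrow and 1.79-fold and 1.95-fold higher in proB ALL. By these 3 probe sets B/T BAL exceeded proB ALL by 3.01-fold to 3.83-fold, whereas the representative and 1460324_at placed the 2 leukemias within 1.06-fold of each other. Mixed lineage leukemia was below both AF4-MLL leukemias by all 5. Against normal marrow it was lower by 2 and higher by 3.

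Dnmt3b, the other de novo methyltransferase, had 654, 4183 and 4269 in the mixed lineage, proB ALL and B/T BAL leukemias, against 1227 in normal marrow. Mixed lineage leukemia was 6.40-fold and 6.53-fold below proB ALL and B/T BAL and 1.88-fold below normal marrow. ProB ALL and B/T BAL were nearly equal, 3.41-fold and 3.48-fold above normal marrow. The second probe set, 1418351_a_at, had 475, 571 and 1034 in the mixed lineage, proB ALL and B/T BAL leukemias, against 393 in normal marrow. By it B/T BAL was 2.63-fold and proB ALL 1.45-fold above normal marrow, and mixed lineage leukemia lay 1.21-fold above it. The 2 probe sets share the order of the leukemias and not the side of normal marrow on which mixed lineage leukemia falls.

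Tet2, which oxidises 5-methylcytosine, gave a different picture by each of its 2 probe sets. The representative had 2224, 1768 and 1661 in the mixed lineage, proB ALL and B/T BAL leukemias, against 1604 in normal marrow, at most 1.39-fold apart. The other, 1438781_at, had 2796, 4689 and 1099 in the same leukemias, against 557 in normal marrow. It was brighter than the representative on the mixed lineage and proB ALL arrays and dimmer on the B/T BAL and normal marrow arrays. By it mixed lineage leukemia was 5.02-fold, proB ALL 8.42-fold and B/T BAL 1.97-fold above normal marrow. Both probe sets placed all 3 leukemias above normal marrow, and they disagree on the size and on which leukemia is highest. With the mean over probe sets the log2 differences were 1.34 in mixed lineage leukemia and 1.55 in proB ALL, against 0.46 and 0.14 by the representative.

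**Figure D2:**
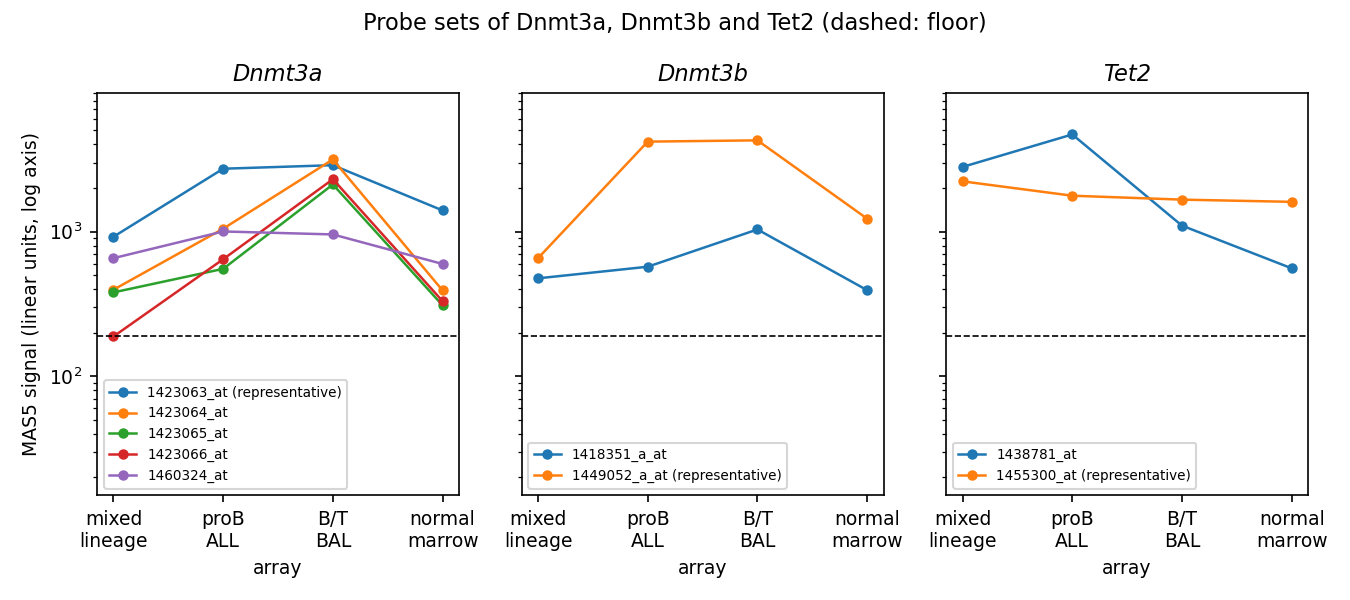
MAS5 signal on a log axis of every probe set of Dnmt3a (5), Dnmt3b (2) and Tet2 (2) on the 4 arrays, with lines joining the values of 1 probe set and the floor of 189 dashed. For Dnmt3a, 3 probe sets peak on the B/T BAL array at 2115 to 3151 and 2 are about level across the leukemias with AF4-MLL alone.

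The promoters of Dnmt3a and Dnmt3b are shown because, by the representative probe sets, these were the genes of the 10 for which mixed lineage leukemia was at least 2-fold below both AF4-MLL leukemias. Capitals mark the GC box (GGGCGG, both strands), which 35.7% of all windows held. It was in at least 1 window of 7 of the 10 genes, a count of genes and not of windows. RefSeq gives Dnmt3a 3 starts, of which the upstream and the downstream one are printed, since the window of the middle one overlaps the first.
Dnmt3a promoter, upstream start, chr12:3806730-3807029, plus strand: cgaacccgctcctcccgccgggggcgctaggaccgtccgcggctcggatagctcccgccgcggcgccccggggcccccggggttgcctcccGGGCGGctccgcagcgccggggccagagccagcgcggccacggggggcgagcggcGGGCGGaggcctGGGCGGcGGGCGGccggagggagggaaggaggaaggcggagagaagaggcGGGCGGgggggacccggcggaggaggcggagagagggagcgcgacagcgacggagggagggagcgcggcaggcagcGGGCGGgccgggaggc
Dnmt3a promoter, downstream start, chr12:3891494-3891793, plus strand: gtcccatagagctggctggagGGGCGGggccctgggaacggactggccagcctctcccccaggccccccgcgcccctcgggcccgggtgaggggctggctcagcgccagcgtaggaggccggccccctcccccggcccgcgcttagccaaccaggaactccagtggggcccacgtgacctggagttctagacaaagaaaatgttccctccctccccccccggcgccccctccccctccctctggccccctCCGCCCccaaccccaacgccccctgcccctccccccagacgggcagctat
Dnmt3b promoter, chr2:153649199-153649498, plus strand: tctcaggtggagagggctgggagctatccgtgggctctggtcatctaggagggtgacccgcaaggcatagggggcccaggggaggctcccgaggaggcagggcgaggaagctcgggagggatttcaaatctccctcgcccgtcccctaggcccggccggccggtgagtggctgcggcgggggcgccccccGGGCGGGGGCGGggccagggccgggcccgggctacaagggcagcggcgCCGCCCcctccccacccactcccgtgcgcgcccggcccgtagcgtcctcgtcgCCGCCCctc

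The upstream Dnmt3a window held 46 CG pairs, the downstream one 18 and the Dnmt3b window 30, where the median over all windows was 7. Over the 14 windows of the 10 genes the counts ran from 2 in a window of Dnmt1 to 57 in Tet2. Which of the Dnmt3a starts the probe sets read cannot be told from the files.

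Against normal marrow, mixed lineage leukemia had 0 of the 10 genes at least 2-fold higher, where 18.8% of all tested genes were, and 1 at least 2-fold lower (Ezh1), where 15.2% were. ProB ALL had 2 higher (Bmi1 and Dnmt3b), against 11.3% of all tested genes, and 0 lower, against 18.7%. B/T BAL had 3 higher (Bmi1, Dnmt3a and Dnmt3b), against 15.4%, and 1 lower (Ezh1), against 17.7%. The median log2 differences of the 10 genes were -0.54, -0.05 and 0.45 in the mixed lineage, proB ALL and B/T BAL leukemias. Both leukemias with AF4-MLL alone had Bmi1 and Dnmt3b at least 2-fold higher, where 5.17% of all tested genes were higher in both. No gene of the 10 was at least 2-fold higher or lower in all 3 leukemias, where 1.31% and 4.45% of all tested genes were. These 3 comparisons share the 1 normal array. Dnmt3a in B/T BAL and Bmi1 in proB ALL lay just past 2-fold, with log2 values of 1.01 each, and Dnmt3a in proB ALL just short of it with 0.93. By the mean over probe sets Tet2 was at least 2-fold higher in mixed lineage leukemia and proB ALL, and Ezh1 and Bmi1 were past 2-fold on no array.

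**Figure D3:**
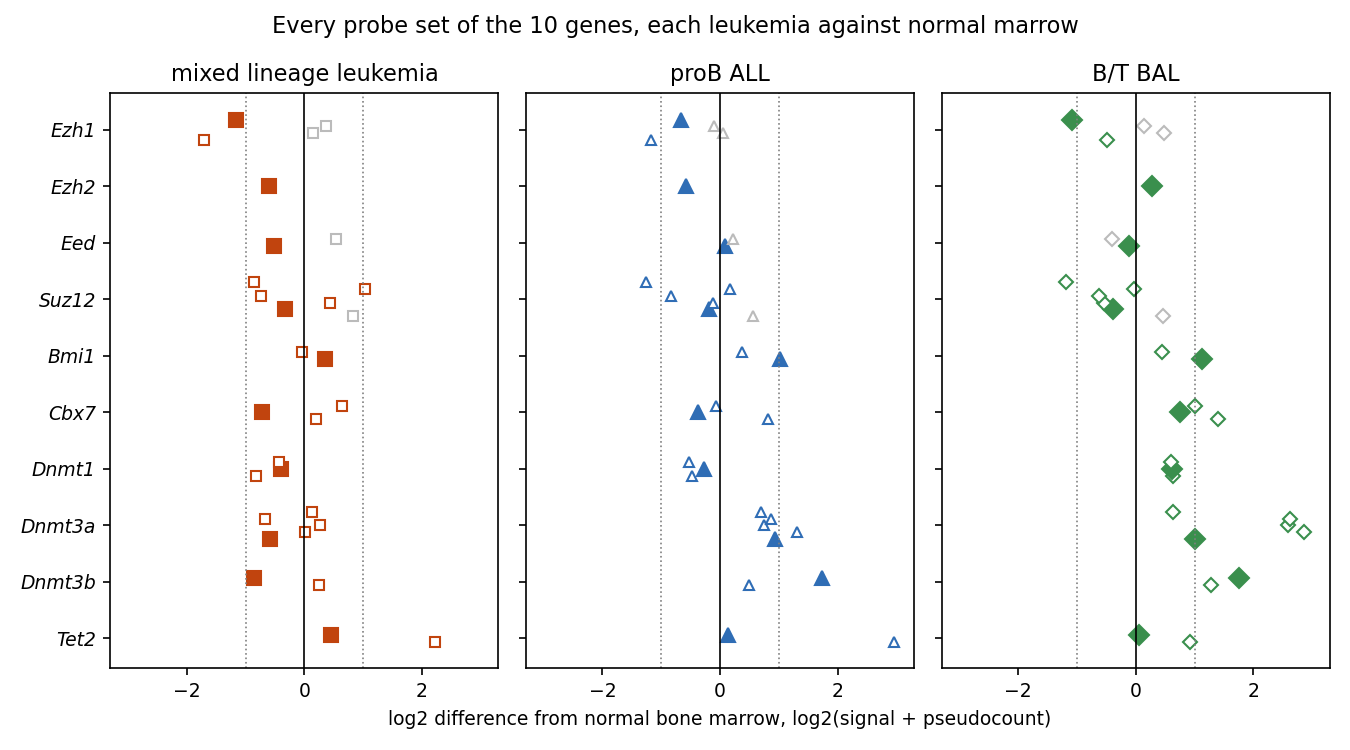
Log2 difference from normal bone marrow, on the log2(signal + 51.4) scale, of all 30 probe sets in the mixed lineage, proB ALL and B/T BAL leukemias, with filled markers for the representative of each gene, open markers for its other probe sets, grey markers for the 4 probe sets below the floor on all arrays, and dotted lines at 2-fold. Dnmt3a spans 0.64 to 2.86 in B/T BAL, and Tet2 spans 0.14 to 2.96 in proB ALL.

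Leukemia was then compared with normal marrow over all 14012 tested genes with limma, 3 arrays against 1, with the spread taken from the 3 leukemias. At an adjusted p of 0.05 it called 0% of all tested genes and 0 of the 10. At an unadjusted p under 0.05 it called 413 genes, or 2.95%, and again 0 of the 10. Without the proB ALL array limma called 71 genes, without the B/T BAL array 113 and without the mixed lineage array 0, and in each case 0 of the 10. Ezh1 had the largest mean log2 difference of the 10 in size, -0.97 ± 0.70 (SE; limma adjusted p = 0.9999), with a lower signal in 3 of 3 leukemias. Bmi1 had 0.83 ± 0.68 (SE; limma adjusted p = 0.9999), with a higher signal in 3 of 3. The leukemias spread most for Dnmt3b, with an SD of 1.50 on the log2 scale, and its mean difference was 0.88 ± 1.11 (SE; limma adjusted p = 0.9999). Suz12 spread least, with an SD of 0.10. At any size, 2 of the 10 were lower in all 3 leukemias (Ezh1 and Suz12), where 19.2% of all tested genes were, and 2 were higher in all 3 (Bmi1 and Tet2), where 19.1% were. Both shares are close to those of all genes.

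The mixed lineage leukemia, with both fusions, was set against the 2 leukemias with AF4-MLL alone. Dnmt3a and Dnmt3b were at least 2-fold below both of them, 2 of the 10 genes, where 10.1% of all tested genes were. None of the 10 was at least 2-fold above both, where 18.9% of all tested genes were. The low end of the signals was higher on the mixed lineage array, with a 2nd percentile of 20.4, against 2.88 and 3.97 for proB ALL and B/T BAL. By their representatives the 10 genes were above the floor on every array, whereas a tested gene had to pass it on only 1. The all-gene shares in this comparison therefore include dimmer genes, and the effect of the low end on them was not tested. In limma, where proB ALL against B/T BAL left 1 residual degree of freedom, Dnmt3b had a mean log2 difference of -2.60 ± 0.51 (SE; limma adjusted p = 0.151) and Dnmt3a -1.55 ± 0.54 (SE; limma adjusted p = 0.246). Neither passed, and limma called 0% of all tested genes at an adjusted p of 0.05. When every signal under the floor was set to it, Dnmt3b passed with an adjusted limma p of 0.0447 and Dnmt3a did not with 0.122, but 2138 of the 2394 genes then called had both AF4-MLL arrays at the floor and so no spread between them. At an unadjusted p under 0.05 limma called 17.8% of all genes, and as lower 5.47% of all genes and 2 of the 10. The log2 difference of Dnmt3b lay at percentile 2.18 of all tested genes and that of Dnmt3a at percentile 8.29. By signal, 8 of the 10 genes were lowest of the 3 leukemias in mixed lineage leukemia, Suz12 and Tet2 being the exceptions, against 34.9% of all tested genes. Scaling to the 75th percentile took Ezh1, Ezh2 and Dnmt1 out of these 8, and quantile normalization took Ezh1 out. The mean over probe sets took Eed out. Leaving out probe sets ending in _a, _s or _x took Ezh1 out and left Dnmt1 and Dnmt3b without a value. As reported, Ezh2 was nearly level in mixed lineage leukemia and proB ALL, with 8383 and 8511. Fusion content and immunophenotype coincide in these samples and cannot be told apart. Neutrophil markers summed to 580529, 118106 and 369052 in the mixed lineage, proB ALL and B/T BAL leukemias, against 352870 in normal marrow. Monocyte markers summed to 79912, 29352 and 13305 in the same leukemias, against 40992 in normal marrow. Their part in the lower Dnmt3a and Dnmt3b signals was not tested.

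Between the 2 leukemias with AF4-MLL alone, 1 of the 10 genes was at least 2-fold higher in B/T BAL than in proB ALL (Cbx7, log2 difference 1.13), where 15.9% of all tested genes were, and 0 were lower, where 10.5% were. Dnmt1 and Ezh2 followed with 0.90 and 0.87. The B/T BAL array was the highest of the 4 for 6 of the 10 genes (Ezh2, Bmi1, Cbx7, Dnmt1, Dnmt3a and Dnmt3b), against 28.1% of all tested genes. For Bmi1, Dnmt3a and Dnmt3b it exceeded proB ALL by only 1.08-fold, 1.06-fold and 1.02-fold by the representative probe sets. By Tet2's other probe set B/T BAL was 4.27-fold lower than proB ALL. T-cell markers were highest on the B/T BAL array too, and natural killer and cytotoxic markers on the proB ALL array. Their part in these differences was not tested.

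The other genes of these complexes were read from lists, and between leukemia and normal marrow limma called none of the tested genes in the pathway and dividing-cell lists, also at an unadjusted p under 0.05. Of 7 PRC2 partners, 0 passed limma between leukemia and normal marrow. Their medians were 0.27, 0.24 and 0.67 in the mixed lineage, proB ALL and B/T BAL leukemias. Mtf2, a Polycomb-like protein that brings PRC2 to CpG-rich DNA, had 1329 and 2005 in mixed lineage leukemia and proB ALL and 19790 in B/T BAL, against 3624 in normal marrow. B/T BAL was the high array by all 6 probe sets of Mtf2, 3 of which had log2 differences of 2.43, 2.31 and 2.37 from normal marrow. Phf1, a related protein, had 576, 468 and 1172 in the leukemias, against 1266 in normal marrow, and was at least 2-fold lower in mixed lineage leukemia and proB ALL. Jarid2 and Aebp2, which belong to another form of PRC2, were higher in all 3 leukemias by their brightest probe sets. Jarid2 had 5014, 7225 and 6108, against 3575 in normal marrow, though its probe set 1450710_at had 496, 753 and 605, against 817 in normal marrow. Aebp2 had 5155, 8398 and 4754, against 3615 in normal marrow, and its probe set 1435070_at was lower in mixed lineage leukemia, with 589 against 778 in normal marrow.

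Of the other PRC1 genes 17 were tested and 0 passed limma between leukemia and normal marrow. Their medians were -0.45, -0.04 and 0.33 in the mixed lineage, proB ALL and B/T BAL leukemias. The chromodomain genes Cbx2, Cbx6 and Cbx8 were lowest in mixed lineage leukemia. Cbx6 had 280, 2106 and 3656 in the 3 leukemias, against 3968 in normal marrow, and its second probe set had 368, 1120 and 2518, against 2507, lower in mixed lineage leukemia and proB ALL and 0.01 higher on the log2 scale in B/T BAL. Cbx2 had 53.9, below the floor, 499 and 1815 in the 3 leukemias, against 807 in normal marrow. Cbx8 had 70.1, below the floor, 330 and 349 in the leukemias, against 444 in normal marrow. In all, 5 of the 17 genes were at least 2-fold below both AF4-MLL leukemias in mixed lineage leukemia and 2 at least 2-fold above both, where 10.1% and 18.9% of all tested genes were. Pcgf5, a relative of Bmi1 in other forms of PRC1, ran the other way, with 4387, 1144 and 743 in the mixed lineage, proB ALL and B/T BAL leukemias, against 3560 in normal marrow. Its probe set 1434666_at gave the same directions. By 1453636_at proB ALL was above normal marrow too, with 779, 351 and 92.3 in the 3 leukemias, against 47.6 in normal marrow. On that probe set B/T BAL and normal marrow were below the floor.

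**Figure D4:**
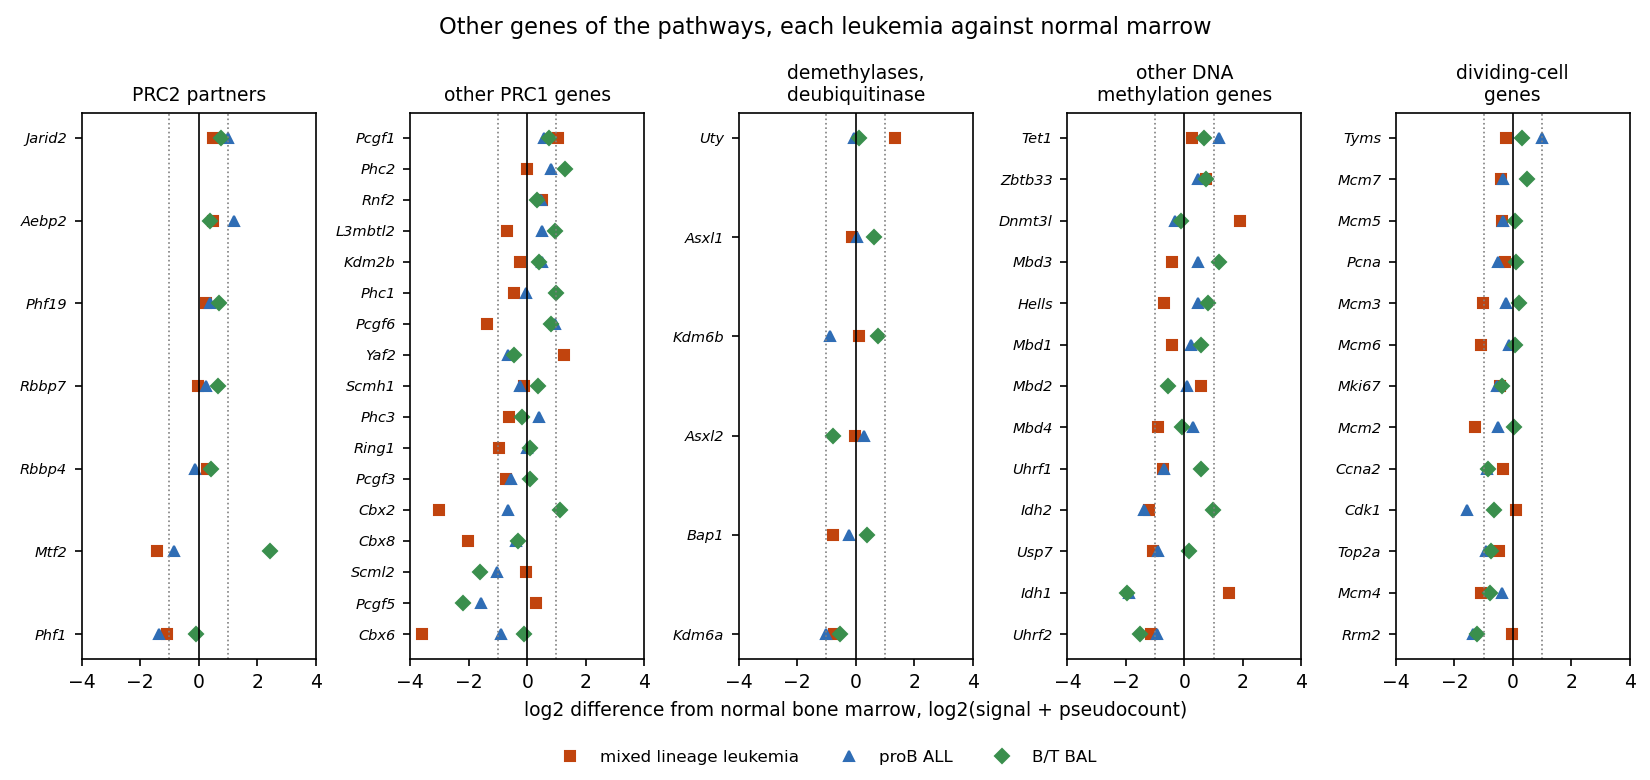
Log2 difference from normal bone marrow, on the log2(signal + 51.4) scale, in mixed lineage leukemia (squares), proB ALL (triangles) and B/T BAL (diamonds) for the tested genes of 5 lists, each list sorted by the mean over the leukemias, with dotted lines at 2-fold. Mtf2 stands at 2.43 in B/T BAL, and Cbx6 and Cbx2 stand at -3.60 and -3.03 in mixed lineage leukemia.

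Of 6 genes tied to the removal of the Polycomb marks, not all of them enzymes, 0 passed limma between leukemia and normal marrow. Their medians were -0.08, -0.14 and 0.25 in the mixed lineage, proB ALL and B/T BAL leukemias. Kdm6a, which demethylates the lysine that PRC2 methylates, had 3094, 2515 and 3562 in the leukemias, against 5173 in normal marrow. Of 13 tested other genes of DNA methylation, 0 passed, with medians of -0.43, 0.10 and 0.56. Idh1, which makes 2-oxoglutarate, a co-substrate of Tet enzymes, had 18395, 1678 and 1628 in the mixed lineage, proB ALL and B/T BAL leukemias, against 6403 in normal marrow, and its other probe set gave the same directions. Dnmt3l, a catalytically inactive partner of Dnmt3a in germ cells, had 635 in mixed lineage leukemia and was below the floor on the other 3 arrays. Tet1 had 338, 702 and 474 in the mixed lineage, proB ALL and B/T BAL leukemias, against 275 in normal marrow, and its other 3 probe sets were above the floor on at most 2 arrays.

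Genes known as targets of these marks were dim. Cdkn2a, the classic target of Bmi1, was below the floor on all 4 arrays. Cdkn2b, its neighbour, had 443 in proB ALL and was below the floor on the other 3. Of 11 measured germline genes that DNA methylation silences in body tissues, 8, 10 and 10 were below the floor in the mixed lineage, proB ALL and B/T BAL leukemias, against 9 in normal marrow. Sycp1 and Sycp3 were above the floor in mixed lineage leukemia alone, with 302 and 376, and Ddx4 and Tdrkh in normal marrow alone, with 190.4 and 223. Brdt, a testis bromodomain protein, was the brightest, with 241, 659 and 938 in the leukemias and a signal below the floor in normal marrow. With normal marrow at the floor it was at least 3.50-fold higher in proB ALL and at least 4.98-fold higher in B/T BAL. Its probe set 1450178_at was above the floor in B/T BAL alone, with 481, and 1435502_a_at on none of the arrays. The Brdt signals above the floor in mixed lineage leukemia and proB ALL rest on its brightest probe set alone.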

How the data were processed

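RNA from 3 leukemias and 1 normal bone marrow, 1 Affymetrix mouse array each, was measured as an intensity per probe set, and the deposited values are MAS5 signals, per the submitters' processing notes. The MAS5 version and settings are not stated there. From the 45101 probe sets, 64 controls were set aside. The platform annotation gave 1 gene to 34945 of the others, several to 932 and none to 9160, and 34741 of the named ones matched RefSeq by gene ID. Signals were used as deposited, on the log2(signal + 51.4) scale, where 51.4 is their 25th percentile, and the floor of 189 is their median. Each gene was represented by its probe set of highest mean log2, and the 14012 genes that passed the floor on 1 array or more were tested, all 10 described here among them. Differences between single arrays have no test and were called at 2-fold. Leukemia against normal marrow (3 arrays against 1, the lone normal array assumed to vary like the leukemias) and both fusions against AF4-MLL alone (1 against 2) were fitted in limma 3.58.1 (R 4.3.3) with eBayes and an intensity trend, adjusted by Benjamini-Hochberg over all genes tested. The scripts were tested on simulated data. With 4 arrays, their number limits the precision, and p-values measure only the spread between these arrays.

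The 10 genes and the gene lists were chosen with earlier results of these data known. Genes of a list were picked where they were at least 2-fold on 1 side of normal marrow in all 3 leukemias. Also picked were the 4 with the largest mean difference and the 2 with the largest difference on each array. Not every gene picked is described. Uhrf1, Cdkn2a and individual markers were named outside this rule. Of 139 list genes, 9 had no probe set of their own and were not used here. Alternatives covered the pseudocount, scaling, the floor, the filter on dim genes, the choice of probe set, robust eBayes and leaving out each leukemia.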

Additional observations from a re-analysis of the deposited data

Results flagged for a closer look

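By their brightest probe sets, Dnmt3a and Dnmt3b lay on opposite sides of normal marrow in the leukemia with both fusions and in the 2 leukemias with AF4-MLL alone. The mean log2 difference of mixed lineage leukemia from the AF4-MLL leukemias was -1.55 for Dnmt3a (limma adjusted p = 0.246) and -2.60 for Dnmt3b (limma adjusted p = 0.151), and neither passed the test of that difference. Each rests on 1 array with both fusions, and by 3 of 5 probe sets of Dnmt3a and 1 of 2 of Dnmt3b all 3 leukemias lay above normal marrow.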

How the results depend on the processing

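No gene passed limma between leukemia and normal marrow as reported. With the pseudocount at the 50th percentile 15 genes passed and with robust eBayes 23, all lower. Leaving out 1 leukemia gave 0 to 113 genes. The 10 genes were not among them under any of these alternatives. Between both fusions and AF4-MLL alone, the count was 0 except when signals under the floor were set to it, which gave 2394 genes, 2335 higher and 59 lower, Dnmt3b among them. Of the 10 genes past 2-fold, mixed lineage leukemia had 1 as reported (Ezh1, lower) and 0 after quantile normalization, and the 1 was another gene, higher, by the mean over probe sets (Tet2, 1.34) and without probe sets ending in _a, _s or _x (Suz12, 1.02). ProB ALL had 2 as reported and 1 with the pseudocount at the 50th percentile, with scaling to the 75th percentile and without those probe sets. B/T BAL had 4 as reported, and 2 with that pseudocount and without those probe sets. B/T BAL against proB ALL gave 1 as reported (Cbx7), 0 with that pseudocount and 3 by the mean over probe sets, which were Dnmt1 (1.05), Dnmt3a (1.03) and Tet2 (-1.06) and not Cbx7 (0.93). Mixed lineage leukemia against both AF4-MLL leukemias gave 2 as reported and 1 without those probe sets, which leaves 8 genes, since Dnmt1 and Dnmt3b have no others. Without them the log2 difference of Ezh1 changed sign in mixed lineage leukemia (0.14) and B/T BAL (0.48), on a probe set below the floor on all 4 arrays. Where no construction of the alternative shows the cause, the cause was not tested. Of 408 log2 differences of the 10 genes under an alternative, 24 crossed 2-fold in size and 22 changed sign. The sign changes were 8 by the mean over probe sets, 8 without the marked probe sets, 5 with scaling to the 75th percentile and 1 after quantile normalization, and all but those 2 of Ezh1 were of differences under 2-fold as reported. Scaling to the 75th percentile moved the median of all genes in mixed lineage leukemia against proB ALL to 0.40, where it was 0.18 as reported, and against normal marrow to 0.21, where it was 0.08. No paired analysis was possible because each group has 1 array.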
